A study of Mus musculus with 12 samples.

Results

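*Nxph3* and *Nxph4* encode neurexophilins, and their expression was examined in all 12 bulk RNA-seq libraries of the developing mouse cortex. Both genes were picked by name from a table of 4859 coding genes, with their levels in these libraries already known, so their own values are given as a description without a test. Of the genes of the table that encode a neurexophilin or a neurexin, 4 others (*Nxph1*, *Nxph2*, *Nrxn2* and *Nrxn3*) were followed as relatives and binding partners.

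Neurexophilins are secreted glycoproteins that bind tightly to the extracellular part of alpha-neurexins. Neurexins are presynaptic adhesion molecules that reach across the synaptic cleft to neuroligins, LRRTMs, cerebellins and other partners, and the neurexophilins are ligands that occupy a separate domain of the long, alpha form. In the mature cortex *Nxph4* is known as a gene of the deepest layer, which descends from the subplate, and *Nxph3* is known from deep-layer neurons and Cajal-Retzius (CR) cells.

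The cells came from the cerebral cortex of mouse embryos of the strain Tg(Ebf2-EGFP)FB58Gsat, collected at E11.5, at E13.5 or at E15.5. At each stage cells were separated by fluorescence into Ebf2-EGFP+ and Ebf2-EGFP- cells, here EGFP+ and EGFP-, with 2 biological replicates of each, which makes 6 groups. The EGFP- cells served as the comparison, and they came from embryos of the same transgenic line, without any treatment in either population. EGFP reports the regulatory sequence of *Ebf2* in 1 transgenic line, embryos of several mice were pooled for each sample, and the population is described as preplate neurons, CR and subplate together, at the first stage and mainly as CR neurons at the last. Levels are FPKM, fragment counts scaled to transcript length and to the mapped fragments of the library. In such bulk samples, fewer cells of a type and less RNA per cell cannot be told apart. The table lists only genes that were called differential between the populations, so a large share of it passes any test between them, and p-values measure only the spread between these replicates.

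The label of the sorted population was checked against 9 CR markers, all of which are in the table. Their summed level was 336 and 319 FPKM in the EGFP+ replicates at E11.5, 189 and 243 at E13.5, then 573 and 1214 at E15.5, against 7.87 to 20.6 FPKM in the EGFP- libraries. *Reln*, the secreted glycoprotein that marks CR cells, averaged 76.1, 156 and 662 FPKM in EGFP+ cells at the 3 stages and at most 12.1 in EGFP- cells. The 9 markers did not move as a set. From E11.5 to E15.5 in EGFP+ cells 4 rose and 3 fell, where 33.3% of all genes rose and 42.1% fell. On the log2(FPKM + 1) scale *Ndnf* rose by 4.23 and *Reln* by 2.98, *Ebf2* fell by 3.53 and *Lhx1* by 1.63, and the median change was -0.11. Of the 8 subplate markers listed, 6 were in the table, and their sum in EGFP+ cells was 116 and 105 FPKM at E11.5, 37.7 and 32.6 at E13.5, then 43.7 and 47.1 at E15.5. Most of that sum was *Tmem163* and *St18*, whereas *Ctgf*, another of these markers, did not exceed 1.03 FPKM in EGFP+ cells. These markers were split as well. From E11.5 to E15.5 in EGFP+ cells 3 of the 6 fell and 1, *Kcnab1*, rose by 2.23. At E15.5 *Tmem163*, *Kcnab1* and *Nr4a2* were higher than in EGFP- cells and 2 of the 6 lower, against 25.8% and 31.6% of all genes. The study also places *Tmem163*, and *Nxph3* with it, among the genes of its cell cluster with CR markers. Both are in its class of genes higher in EGFP+ cells at all 3 stages. The 7 cortical plate markers summed to 196 and 251 FPKM at E11.5, 971 and 978 at E13.5, then 1087 and 742 at E15.5 in EGFP+ cells, and to 57.7 and 59.9, 473 and 597, and 919 and 762 in EGFP- cells. At E15.5 the cortical plate sums of both populations therefore overlapped, while the CR sums did not. Progenitor markers were lower in EGFP+ than in EGFP- libraries, with sums of 89.0 to 430 against 456 to 1624 FPKM for radial glia. For the cell cycle the sums were 191 and 172 against 588 and 513 at E11.5, and 11.05 and 9.39 against 108 and 56.9 at E15.5. Intermediate progenitor markers summed to 234 and 218 FPKM in EGFP+ and 51.7 and 57.5 in EGFP- cells at E11.5, and to 35.0 and 19.1 against 240 and 136 at E15.5. Erythroid markers stood out in EGFP- cells at E11.5 with 1306 and 2752 FPKM, against 97.1 and 32.9 in EGFP+ cells, as did meningeal markers with 129 and 110 against 41.9 and 47.2. Only 3 of 5 endothelial and 1 of 5 microglial markers were in the table, with sums of at most 7.19 and 2.92 FPKM in any library. The 1 microglial gene, *Aif1*, was higher in EGFP+ cells at E13.5 by 0.65 and at E15.5 by 1.20 (limma adjusted p = 0.000365 and 8.80e-06). The other microglial markers could not be checked.

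*Nxph4* was an early family member in EGFP+ cells only, as was *Nxph1*. In EGFP+ cells replicates 1 and 2 held 114 and 104 FPKM at E11.5, 58.1 and 57.0 at E13.5, then 59.5 and 26.0 at E15.5. The E11.5 libraries were the highest of all 12, and both lay above every later EGFP+ library, whereas the E13.5 and E15.5 groups overlapped. The group means were 109 ± 7.17, 57.5 ± 0.811 and 42.7 ± 23.7 FPKM (SD, n = 2), so the mean at E15.5 was 2.56-fold below that at E11.5.

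In EGFP- cells *Nxph4* was low at the first stage. Replicates 1 and 2 held 1.57 and 1.38 FPKM at E11.5, 18.4 and 24.7 at E13.5, then 40.0 and 16.7 at E15.5. Both E11.5 libraries were below all later ones, and the 2 later groups overlapped. The mean was 1.48 ± 0.139 FPKM at E11.5 and 28.4 ± 16.5 at E15.5 (SD, n = 2), 19.2-fold higher.

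The 2 populations thus approached each other in *Nxph4*. The ratio of EGFP+ to EGFP- cells within same-numbered replicates was 72.7 and 75.7 at E11.5, 3.15 and 2.31 at E13.5, then 1.49 and 1.56 at E15.5. The groups did not overlap at E11.5 and E13.5 and overlapped at E15.5, where the EGFP- library of replicate 1 exceeded the EGFP+ library of replicate 2. Differences on the log2(FPKM + 1) scale were 5.48, 1.39 and 0.59, each with an SE of 0.38 from the fit over 12 libraries. The first was the third largest of 4859 genes in favour of EGFP+ cells, and the last was in place 1058. Without the EGFP- library of replicate 2 the E15.5 difference was -0.02, and without the EGFP+ library of replicate 1 it was 0.0033. Within same-numbered replicates it was 0.56 and 0.61.

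*Nxph3* was the late family member. In EGFP+ cells replicates 1 and 2 held 1.88 and 2.14 FPKM at E11.5, 16.7 and 26.3 at E13.5, then 93.5 and 56.9 at E15.5. No 2 stages overlapped, and each later stage lay wholly above the one before. The means were 2.01 ± 0.185, 21.5 ± 6.80 and 75.2 ± 25.9 FPKM (SD, n = 2), a 10.7-fold step followed by a 3.50-fold step and 37.4-fold in all. On the log2(FPKM + 1) scale the difference between E15.5 and E11.5 was 4.62 (SE 0.39), place 10 of 4859 genes from the top.

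The same order of stages held for *Nxph3* in EGFP- cells at a lower level. Replicates 1 and 2 held 0.236 and 0.352 FPKM at E11.5, 1.24 and 3.02 at E13.5, then 10.2 and 3.83 at E15.5. The stages again did not overlap, and the mean went from 0.294 ± 0.0819 to 2.13 ± 1.26 and 7.0 ± 4.48 FPKM (SD, n = 2), 23.8-fold higher at the last stage than at the first. At each stage both EGFP+ libraries lay above both EGFP- libraries.

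Within same-numbered replicates the ratio of EGFP+ to EGFP- cells for *Nxph3* was 7.96 and 6.08 at E11.5 and lay between 8.71 and 14.8 in the 4 pairs of the later stages. The enrichment was thus present at every stage, unlike the narrowing seen for *Nxph4*. On the log2(FPKM + 1) scale the differences were 1.22, 2.87 and 3.33 (SE 0.39), places 754, 9 and 11 of 4859. The first of these understates the ratio, because the added 1 FPKM exceeds the EGFP- level at E11.5.

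**Figure D1:**
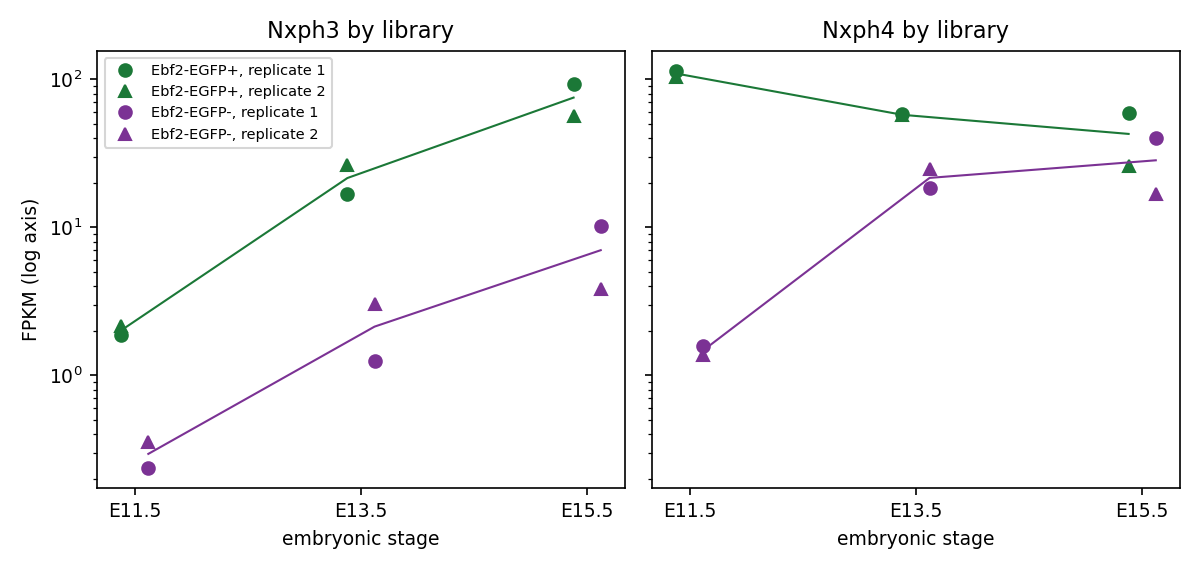
FPKM of *Nxph3* (left) and *Nxph4* (right) in each library on a log axis against embryonic stage, with circles for replicate 1, triangles for replicate 2, green for Ebf2-EGFP+ and purple for Ebf2-EGFP- cells, and lines through the group means. *Nxph3* runs upward in both populations with the green points above the purple ones, while *Nxph4* in Ebf2-EGFP+ cells runs down from 114 and 104 FPKM and the populations overlap at E15.5.

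Ranked by group mean, *Nxph3* was highest in EGFP+ cells at E15.5, followed by EGFP+ cells at E13.5, EGFP- cells at E15.5 and at E13.5, EGFP+ cells at E11.5 and EGFP- cells at E11.5. In this order the only neighbours that overlapped were EGFP- cells at E13.5 with EGFP+ cells at E11.5. For *Nxph4* the order was EGFP+ cells from the earliest to the latest stage, then EGFP- cells from the latest to the earliest. Here the 4 middle groups overlapped each with the next, and only the top and the bottom group stood clear.

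Set against the other listed genes of the same library, *Nxph4* exceeded 96.9% and 96.7% of them in the EGFP+ replicates at E11.5 and 90.4% and 79.6% at E15.5. *Nxph3* exceeded 24.4% and 26.0% at E11.5 and 94.7% and 90.7% at E15.5 in the same population. In EGFP- cells at E11.5 both genes were low in this order, *Nxph3* above 3.81% and 5.04% and *Nxph4* above 16.4% and 14.4% of the listed genes.

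The replicates of E15.5 differed more for these genes than for most others. Replicate 1 was above replicate 2 for both genes in both populations, by 1.64-fold for *Nxph3* and 2.29-fold for *Nxph4* in EGFP+ cells and by 2.65-fold and 2.40-fold in EGFP- cells. On the log2(FPKM + 1) scale these gaps exceeded those of 94.7%, 99.0%, 99.0% and 99.0% of the 4859 genes in the same group. The EGFP+ library of replicate 1 also had the higher cortical plate sum, 1087 against 742 FPKM, and the lower CR sum, 573 against 1214. In EGFP- cells replicate 1 had the higher sums for cortical plate, 919 against 762 FPKM, and for 8 radial glia markers, 817 against 456. Their part in the levels of *Nxph3* and *Nxph4* was not tested. At E13.5 the *Nxph3* gaps were wide too, with replicate 2 the higher, and exceeded those of 96.2% and 98.3% of genes in EGFP+ and EGFP- cells. For *Nxph4* the shares at E13.5 were 9.47% and 73.8%.

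The relation between both genes can be read within a library, where the scaling of libraries cancels. The ratio of *Nxph3* to *Nxph4* FPKM in EGFP+ cells was 0.0164 and 0.0205 at E11.5, 0.288 and 0.462 at E13.5, then 1.57 and 2.19 at E15.5. The stages did not overlap, and *Nxph4*, which at E11.5 was 60.8-fold and 48.7-fold above *Nxph3*, was below it in both libraries at E15.5. In EGFP- cells the ratio was 0.150 and 0.256, 0.0673 and 0.122, and 0.254 and 0.230 at the 3 stages. There *Nxph4* was above *Nxph3* in all 6 libraries, and the first and the last stage overlapped. The ratio compares levels per transcript length, 2099 bases for *Nxph3* and 1675 for *Nxph4* in the annotation used here, which is not the release the authors counted with.

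The other neurexophilins followed courses of their own. *Nxph1*, which encodes a close relative of the same ligand family, held 27.5 and 22.2 FPKM in EGFP+ replicates 1 and 2 at E11.5, 1.35 and 0.868 at E13.5, then 0.596 and 0.724 at E15.5. In EGFP- cells it held 2.65 and 3.97, 9.49 and 12.6, and 11.6 and 12.2 FPKM. The order of the populations turned between E11.5 and E13.5, without overlap at any stage.

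*Nxph1* was higher in EGFP+ cells at E11.5 by 2.59 on the log2(FPKM + 1) scale (SE 0.21, limma adjusted p = 1.09e-06) and lower by a difference of -2.51 at E13.5 (adjusted p = 4.18e-06) and -2.96 at E15.5 (adjusted p = 1.48e-06). These adjusted p-values come from limma over all 4859 genes, of which 81.7%, 75.6% and 57.4% passed in stage order. From E11.5 to E15.5 *Nxph1* fell by 3.95 in EGFP+ cells (limma adjusted p = 6.78e-08) and rose by 1.59 in EGFP- cells (adjusted p = 2.38e-05), in comparisons where 75.4% and 85.4% of all genes passed. The change of the population difference was -5.55 (SE 0.30, limma adjusted p = 8.94e-07), the third lowest of 4859 genes in a comparison where 59.8% passed. For *Nxph4* the same quantity was -4.89, place 12 from the lowest, given as a description.

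*Nxph2* was low throughout and was seen mainly in EGFP- cells. In EGFP+ cells it did not exceed 0.142 FPKM and was listed at 0 in 2 libraries, while EGFP- replicates held 0.0377 and 0.0468 FPKM at E11.5, 1.74 and 1.85 at E13.5, then 3.26 and 2.76 at E15.5. Its population difference on the log2(FPKM + 1) scale was -0.05 at E11.5 (limma adjusted p = 0.691), -1.43 at E13.5 (adjusted p = 3.55e-06) and -1.90 at E15.5 (adjusted p = 5.78e-07). In EGFP- cells it rose by 1.94 from E11.5 to E15.5 (limma adjusted p = 6.65e-08).

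The make-up of the family in each library, as shares of the summed FPKM of *Nxph1* to *Nxph4*, changed with stage in EGFP+ cells. *Nxph4* made up 79.6% and 81.1% at E11.5, 76.2% and 67.7% at E13.5, then 38.7% and 31.0% at E15.5. *Nxph3* made up 1.31% and 1.67%, then 21.9% and 31.3%, then 60.9% and 67.9%. *Nxph1* went from 19.1% and 17.3% to at most 1.78% at the later stages, so *Nxph3* took the leading place while the early family members receded.

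The summed level itself did not follow a single direction in EGFP+ cells, with 144 and 129 FPKM at E11.5, 76.2 and 84.2 at E13.5, then 154 and 83.8 at E15.5. In EGFP- cells the sum was 4.50 and 5.75, 30.9 and 42.2, and 65.1 and 35.4 FPKM. There *Nxph1* led at E11.5 with 58.9% and 69.1%, and *Nxph4* led at E13.5 with 59.7% and 58.5% and at E15.5 with 61.5% and 47.1%. *Nxph3* did not exceed 15.6% of the family in any EGFP- library.

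**Figure D2:**
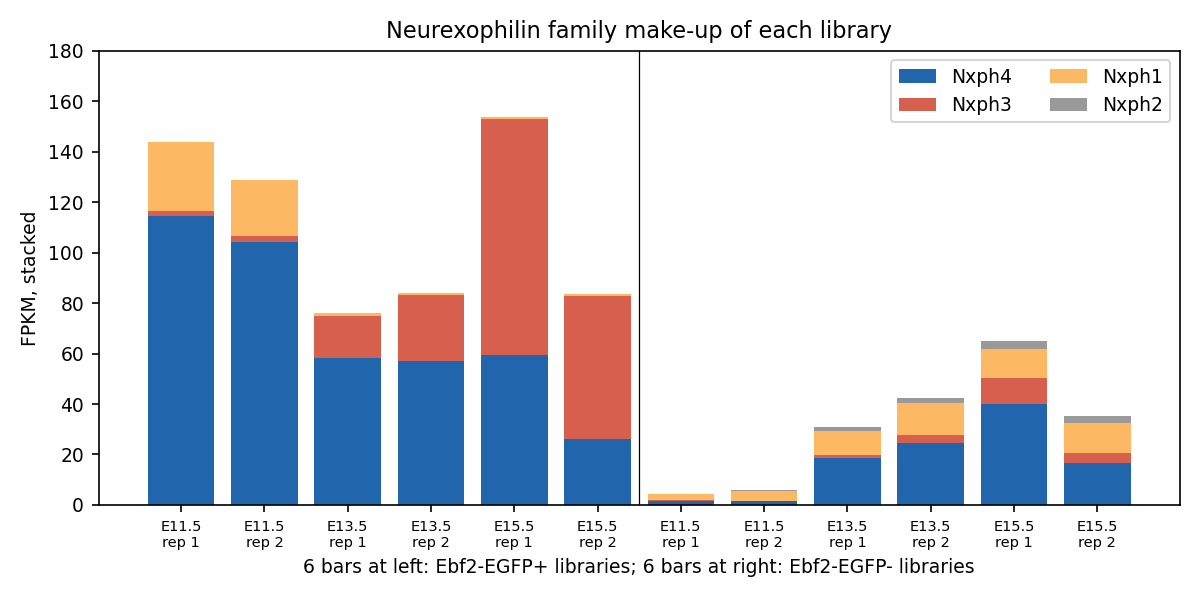
Stacked bars of FPKM of the 4 neurexophilins in each of the 12 libraries, the 6 Ebf2-EGFP+ libraries at left and the 6 Ebf2-EGFP- libraries at right, each ordered by stage and replicate. At left the blue *Nxph4* part gives way to the red *Nxph3* part, which holds 60.9% and 67.9% of the bar at E15.5, while at right *Nxph4* and *Nxph1* hold most of each bar.

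Neurexins are the receptors of the neurexophilins. Gene-level FPKM do not separate the alpha form, which binds neurexophilins, from the shorter forms of the same genes. *Nrxn2* averaged 30.4 ± 0.902, 27.7 ± 2.63 and 61.1 ± 14.7 FPKM in EGFP+ cells and 11.2 ± 0.387, 12.2 ± 3.25 and 39.0 ± 6.36 in EGFP- cells (SD, n = 2). EGFP+ cells were higher by 1.37, 1.14 and 0.62 on the log2(FPKM + 1) scale (limma adjusted p = 7.34e-05, 0.000423 and 0.0219). The call at E15.5 was lost without the EGFP- library of replicate 2 (limma adjusted p = 0.129) and without the EGFP+ library of replicate 1 (adjusted p = 0.193). *Nrxn2* rose from E11.5 to E15.5 by 0.96 in EGFP+ cells (limma adjusted p = 0.00116) and by 1.71 in EGFP- cells (adjusted p = 1.10e-05).

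*Nrxn3* ran the other way between the populations, with 2.41 ± 0.115, 0.445 ± 0.163 and 0.762 ± 0.0619 FPKM in EGFP+ cells and 6.80 ± 0.808, 4.44 ± 0.498 and 9.20 ± 0.0723 in EGFP- cells (SD, n = 2). The EGFP+ minus EGFP- difference was -1.19, -1.91 and -2.53 on the log2(FPKM + 1) scale (limma adjusted p = 3.40e-05, 4.18e-06 and 8.20e-07). *Nrxn3* fell by 0.95 from E11.5 to E15.5 in EGFP+ cells (limma adjusted p = 0.000216) and rose by 0.39 in EGFP- cells (adjusted p = 0.0383), a rise that was lost with a replicate block (adjusted p = 0.0596) and in 5 fits without 1 library (adjusted p from 0.0532 to 0.213). At the 2 later stages *Nrxn3*, *Nxph1* and *Nxph2* were all higher in EGFP- cells. Of the 12 interneuron markers listed, 11 were lower in EGFP+ cells at E13.5 and 10 at E15.5, against 43.5% and 31.6% of all genes. At E11.5, 11 were lower as well, against 44.9% of all genes, while *Nxph1* was higher in EGFP+ cells. The marker sums in EGFP- cells were 235 and 305 FPKM at E11.5, 223 and 177 at E13.5, then 232 and 177 at E15.5, whereas *Nxph1* and *Nxph2* rose there. In EGFP+ libraries the sums were 7.14 to 33.4 FPKM. The part of the interneuron markers in the levels of *Nrxn3*, *Nxph1* and *Nxph2* was not tested.

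**Figure D3:**
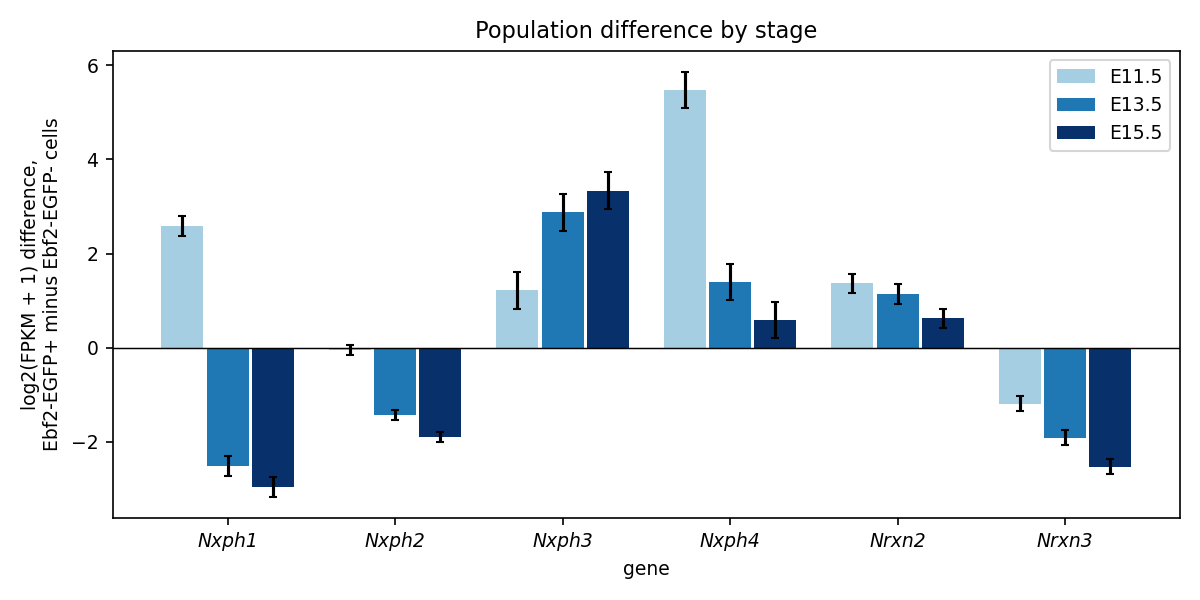
Bars give the Ebf2-EGFP+ minus Ebf2-EGFP- difference on the log2(FPKM + 1) scale for the 4 neurexophilins and for *Nrxn2* and *Nrxn3* by stage (light to dark, earliest to latest), and error bars are the SE of the fit over 12 libraries. *Nxph4* drops from 5.48 to 0.59, *Nxph3* goes from 1.22 to 3.33, *Nxph1* turns from positive to negative, and *Nrxn2* stays above and *Nrxn3* below 0.

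The other extracellular partners of neurexins were taken as a list of 23 genes, of which 14 were in the table. All 14 were higher in EGFP+ cells at E11.5, 11 at E13.5, then 8 at E15.5, where 2 were lower. Over all genes 36.8%, 32.1% and 25.8% were higher and 44.9%, 43.5% and 31.6% lower in the same comparisons. The median difference of the list was 1.00, 0.94 and 0.54 on the log2(FPKM + 1) scale, and that of all genes -0.19, -0.19 and -0.11. A median-of-ratios scaling of the libraries moved the all-gene medians to -0.0029, -0.0004 and 0.023.

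Within this list the cerebellins, secreted bridges between neurexins and postsynaptic receptors, were, like *Nxph4* and *Nxph1*, at their highest mean in EGFP+ cells at E11.5. *Cbln2* lay between 36.3 and 38.0 FPKM in EGFP+ cells at E11.5 and between 0.390 and 1.10 at E15.5, and between 1.43 and 1.65 and between 2.17 and 3.41 in EGFP- cells. It was higher in EGFP+ cells at E11.5 by 3.91 (limma adjusted p = 1.35e-06), lower at E15.5 by a difference of -1.13 (adjusted p = 0.0120) and fell by 4.48 in EGFP+ cells over the stages (adjusted p = 4.76e-07). The call at E15.5 was lost without EGFP- replicate 2 (limma adjusted p = 0.0693) and without EGFP+ replicate 1 (adjusted p = 0.101). *Cbln1* and *Cbln4* were higher at E11.5 by 2.29 and 1.73 on the same scale (limma adjusted p = 3.57e-06 and 1.19e-06). At E15.5 the differences were 0.40 for *Cbln1* (limma adjusted p = 0.149, and 0.0407 with a replicate block) and -0.10 for *Cbln4* (adjusted p = 0.578).

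*Car10*, a carbonic anhydrase-related protein that binds neurexins, was, like *Nxph3*, highest in EGFP+ cells at E15.5. It lay between 0.995 and 1.37 FPKM in EGFP+ cells at E11.5, between 1.01 and 1.15 at E13.5, then between 5.76 and 18.7 at E15.5, and did not exceed 0.252 FPKM in EGFP- cells. The groups did not overlap at any stage, and its difference was 0.96, 0.95 and 3.23 on the log2(FPKM + 1) scale (limma adjusted p = 0.0222, 0.0254 and 1.99e-05). The *Car10* call at E11.5 was lost without either EGFP- library or EGFP+ replicate 1 of that stage (limma adjusted p from 0.0669 to 0.111), and the call at E13.5 without any 1 of the 4 libraries of that stage (adjusted p from 0.0626 to 0.0919). The related *Car11* was higher by 1.00, 1.62 and 1.25 (limma adjusted p = 0.00119, 6.13e-05 and 0.000583) and rose in both populations, by 1.94 and 1.69.

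Of the remaining named partners, *Lrrtm1* and *Lrrtm4*, which encode postsynaptic leucine-rich repeat proteins, were higher in EGFP+ cells at E13.5 by 1.60 and 1.42 on the log2(FPKM + 1) scale (limma adjusted p = 1.93e-05 and 9.85e-05). *Clstn3*, a calsyntenin, was higher at E11.5 by 1.39 (limma adjusted p = 1.53e-05). *Fam19a2*, which encodes a secreted neurexin-binding protein, was higher at E11.5 by 1.06 and lower at E15.5 by a difference of -1.31 (limma adjusted p = 0.0223 and 0.0118). The *Fam19a2* call at E11.5 was lost without EGFP- replicate 2 or either EGFP+ library of that stage (limma adjusted p from 0.0635 to 0.116), and the call at E15.5 without EGFP- replicate 2 or EGFP+ replicate 1 (adjusted p = 0.107 and 0.116). From E11.5 to E15.5, 7 of the 14 rose and 4 fell in EGFP+ cells, and 11 rose and 0 fell in EGFP- cells. Over all genes 33.3% rose and 42.1% fell in EGFP+ cells, and 37.7% rose and 47.6% fell in EGFP- cells.

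The proteins that bind the neurexin tail inside the presynaptic terminal were taken as a list of 7 genes, of which 4 were in the table. All 4 were higher in EGFP+ cells at every stage, where 36.8%, 32.1% and 25.8% of all genes were higher, with a median of 1.40, 0.83 and 0.65 on the log2(FPKM + 1) scale. At E15.5 the call of *Apba2*, the adaptor Mint2 (0.37, limma adjusted p = 0.0359), was lost in 7 fits without 1 library (adjusted p from 0.0516 to 0.251), and that of *Cask* (0.54, adjusted p = 0.00752) without EGFP- replicate 1 (adjusted p = 0.0741). *Apba1*, the adaptor Mint1, was higher by 2.51, 1.44 and 1.34 (limma adjusted p = 4.37e-07, 3.43e-05 and 8.03e-05). *Lin7a* and the scaffold kinase *Cask* were higher at E11.5 by 1.69 and 1.10 (limma adjusted p = 4.99e-06 and 2.75e-05). For all 4 the difference between the populations narrowed from E11.5 to E15.5. The narrowing of *Cask* (-0.56, limma adjusted p = 0.0334) was lost under median-of-ratios scaling (adjusted p = 0.0563) and in 6 fits without 1 library (adjusted p from 0.0529 to 0.124), and that of *Apba2* (-0.64, adjusted p = 0.0138) without EGFP+ replicate 2 at E15.5 (adjusted p = 0.0572). Of the 14 extracellular partners the difference changed downward for 7 and upward for 1, *Car10*. Over all genes 27.7% changed downward and 32% upward in this comparison. Among the 7 were *Cbln2* and *Fam19a2*, whose difference went from above to below 0. *Cbln4* was among them too, with a difference near 0 at E15.5 (-0.10, limma adjusted p = 0.578).

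Synaptic adhesion genes outside the neurexin system served for comparison, with 22 of 31 in the table. Of these, 15 were higher and 1 lower in EGFP+ cells at E11.5, 15 and 1 at E13.5, then 8 and 2 at E15.5, with medians of 0.77, 0.62 and 0.34. The shares over all genes were 36.8% higher and 44.9% lower at E11.5, 32.1% and 43.5% at E13.5, then 25.8% and 31.6% at E15.5. *Lrfn5*, a postsynaptic adhesion protein, was higher by 3.01, 2.39 and 1.24 (limma adjusted p = 7.77e-07, 8.70e-06 and 0.000916). *Clstn2*, a calsyntenin like *Clstn3*, rose from E11.5 to E15.5 in both populations, by 3.76 in EGFP+ and 3.90 in EGFP- cells (limma adjusted p = 2.58e-05 and 1.30e-05).

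**Figure D4:**
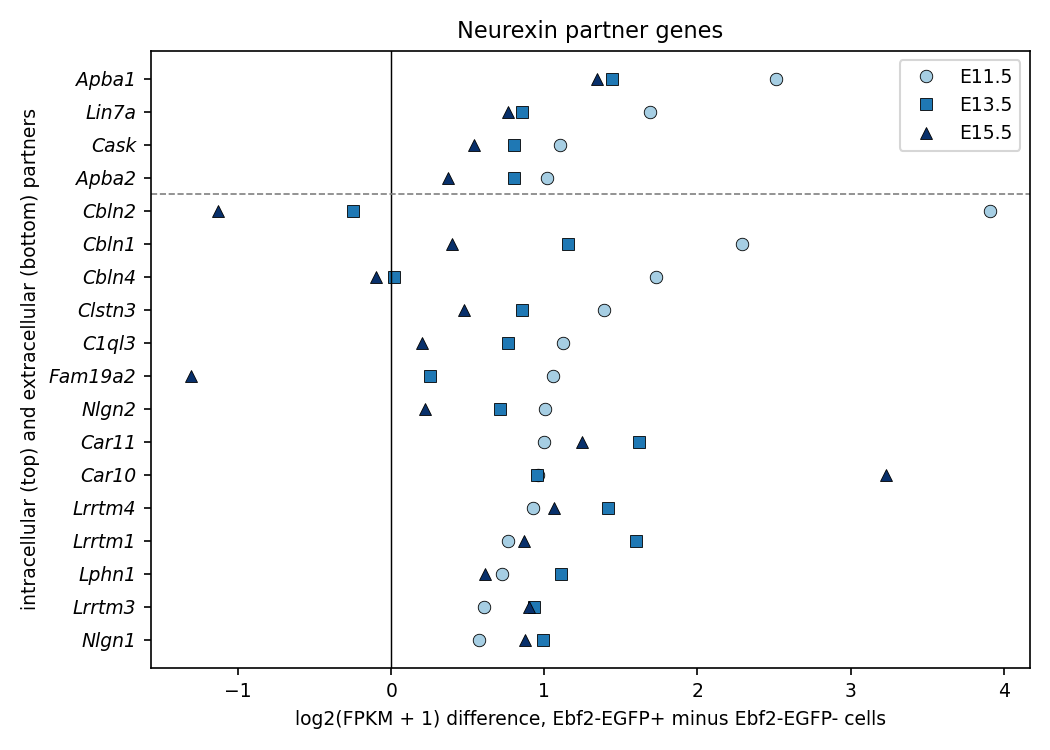
Each row is a neurexin partner gene, intracellular ones above the dashed line and extracellular ones below it, and the points give the Ebf2-EGFP+ minus Ebf2-EGFP- difference on the log2(FPKM + 1) scale at E11.5 (circles), E13.5 (squares) and E15.5 (triangles). All circles lie right of 0, *Cbln2* moves from 3.91 to -1.13 and *Car10* from 0.96 to 3.23.

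The genes with the most similar course over the 12 libraries were found by the root mean square difference between profiles of log2(FPKM + 1), each centred on its own mean. For *Nxph3* these were *Hs3st4*, a heparan sulfate sulfotransferase, at 0.38, *Cnih3*, an auxiliary protein of AMPA receptors, at 0.51, *Sh3gl2*, the endocytic protein endophilin A1, at 0.62, *Prkce*, a protein kinase C, at 0.62, and *Cacna1e*, a calcium channel subunit, at 0.68. The median over all genes was 2.25. *Hs3st4* averaged 2.01, 13.2 and 66.8 FPKM in EGFP+ cells and 0.260, 0.920 and 5.57 in EGFP- cells at the 3 stages, close to the level of *Nxph3* as well as to its course.

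For *Nxph4* the nearest were *Tbr1*, a transcription factor of early glutamatergic neurons, at 0.57, *Ppp1r14a*, a phosphatase inhibitor, at 0.65, *Nrn1*, the neurite growth protein neuritin, at 0.70, *Slc17a7*, the vesicular glutamate transporter VGLUT1, at 0.72, and *Dusp4*, a MAP kinase phosphatase, at 0.74, against a median of 1.95. *Tbr1* averaged 268, 226 and 141 FPKM in EGFP+ cells and 2.33, 73.9 and 54.1 in EGFP- cells. The means of *Nrn1* and *Dusp4* also fell at each step in EGFP+ cells. *Slc17a7* averaged 24.6, 55.7 and 37.9 FPKM there and *Ppp1r14a* 37.1, 47.1 and 13.7, so both rose from E11.5 to E13.5, unlike *Nxph4*. All 5 had their lowest mean in EGFP- cells at E11.5. *Nxph3* and *Nxph4* lay 1.87 apart, which put *Nxph4* in place 1807 from *Nxph3* and *Nxph3* in place 2256 from *Nxph4* among 4858 genes. By Pearson correlation over the same libraries only *Cnih3* and *Tbr1* stayed among the nearest 5.

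**Figure D5:**
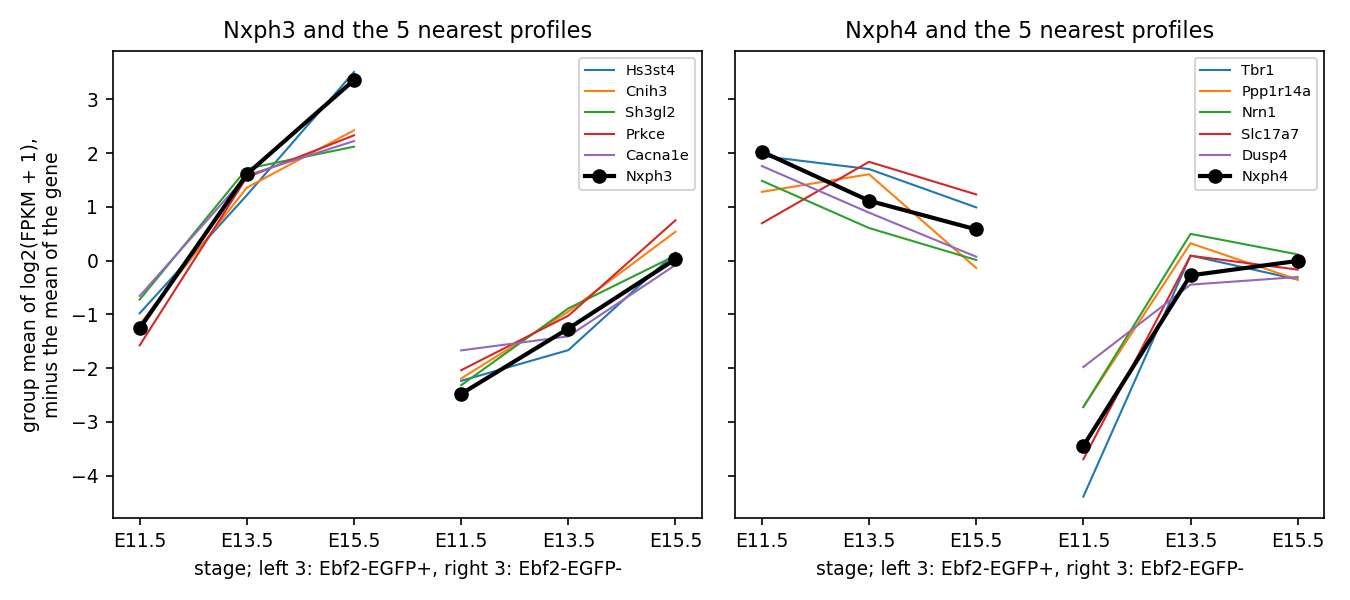
Group means of log2(FPKM + 1) minus the mean of each gene, for *Nxph3* (left) and *Nxph4* (right) in black and their 5 nearest genes in colour, with the Ebf2-EGFP+ stages on the left of each panel and the Ebf2-EGFP- stages on the right. The *Nxph3* set climbs through the stages in both populations, and the *Nxph4* set starts high in Ebf2-EGFP+ cells and lowest in Ebf2-EGFP- cells at E11.5.

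Both genes are compact, with 1 coding transcript of 2 exons each and no other coding gene overlapping them in GRCm38, the same assembly as mm10. *Nxph3* (ENSMUSG00000046719.7) lies on the minus strand of chromosome 11 from 95509845 to 95514570, and *Nxph4* (ENSMUSG00000040258.6) on the minus strand of chromosome 10 from 127525473 to 127534559. The relatives lie on other chromosomes, *Nxph1* on chromosome 6 and *Nxph2* on chromosome 2.

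Of the nearest coding neighbours, 2 on each side, 3 were in the table. *Ngfr*, the p75 neurotrophin receptor gene, starts 54247 bases beyond *Nxph3* and averaged 4.20, 15.4 and 11.4 FPKM in EGFP+ cells and 2.61, 2.49 and 1.46 in EGFP- cells. Its difference was 0.53 at E11.5 (limma adjusted p = 0.146, and 0.00425 with a replicate block), 2.24 at E13.5 (adjusted p = 8.85e-05) and 2.34 at E15.5 (adjusted p = 0.000108). *Spop*, a ubiquitin ligase adaptor gene 16438 bases from *Nxph3* on the other side, differed by -0.28, 0.27 and 0.55 (limma adjusted p = 0.0563, 0.0667 and 0.00278), and with a replicate block the first pair passed as well (adjusted p = 0.0203 and 0.0246). *Lrp1*, a lipoprotein receptor gene 3601 bases from *Nxph4*, differed by 0.86, 0.90 and 0.42 (limma adjusted p = 0.00233, 0.00222 and 0.104, the last 0.0185 with a replicate block), a smaller range than that of *Nxph4*.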

How the data were processed

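Bulk RNA-seq of 12 libraries was analysed. Per the study's methods, the authors captured polyadenylated RNA, aligned paired-end reads to mm10 with TopHat2 2.0.8b and deposited FPKM from Cufflinks 2.2.0. The deposited table holds 4859 coding genes called differential, and its columns of fold, p-value and adjusted p-value were not used, nor was the lncRNA table. Fragment counts are not given, so the depth per library is unknown and no counting interval was made. FPKM sums per library ran from 111136 to 146703.

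The scale was log2(FPKM + 1), and limma 3.58.1 (R 4.3.3) was run as 1 fit of 6 groups with a variance trend, and Benjamini-Hochberg adjustment over all 4859 genes of each comparison, with calls at an adjusted p under 0.05. The contrasts were EGFP+ minus EGFP- cells for every stage, E15.5 against E11.5 in each population, and the change of the population difference. The fit was tested on simulated data. The labels number the replicates alike in EGFP+ and EGFP- cells. Across genes, libraries with the same number deviated together from their groups (correlations of 0.431, 0.534 and 0.431), so the numbers were taken as pairs for an alternative fit with a block. Alternatives were a pseudocount of 0.1, median-of-ratios scaling, a mean of at least 1 FPKM, a replicate block and leaving out each library.

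The members, the 4 pathway lists and the 11 marker lists were chosen with earlier results of these data known. Named genes were the members, the other family genes, up to 4 called genes without overlap per list and comparison, the 5 nearest profiles of each member and the 2 nearest coding genes on each side. Of the marker lists and the other adhesion genes, only a part of the genes so named is printed. Positions came from GENCODE M21. Some genes that these rules and lists cover are not reported here and were left out of the list counts.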

Additional observations from a re-analysis of the deposited data

Results flagged for a closer look

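A change of the EGFP+ minus EGFP- difference from E11.5 to E15.5 was tested as an interaction term in limma over all 4859 genes, of which 59.8% passed. The change is given here for those family, partner, adhesion and neighbour genes named above that passed. Among the family it was -5.55 for *Nxph1*, -1.86 for *Nxph2*, -0.75 for *Nrxn2* and -1.34 for *Nrxn3* on the log2(FPKM + 1) scale. The value of *Nrxn2* was near the threshold, with a limma adjusted p = 0.0428.

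Among the named extracellular partners the change was -5.04 for *Cbln2*, -1.90 for *Cbln1*, -1.83 for *Cbln4*, -0.92 for *Clstn3*, -2.37 for *Fam19a2* and, in the other direction, 2.28 for *Car10*. Among intracellular partners it was -1.17 for *Apba1*, -0.64 for *Apba2*, -0.56 for *Cask* and -0.93 for *Lin7a*. Of the 22 synaptic adhesion genes outside the neurexin system, 11 changed downward and 1 upward, against 27.7% and 32% of all genes. *Lrfn5*, 1 of the 11, changed by -1.78. Both listed neighbours of *Nxph3* shifted toward EGFP+ cells, *Ngfr* by 1.81 and *Spop* by 0.83.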

How the results depend on the processing

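No depth is known, 2 libraries per group set the precision, and values under about 1 FPKM are compressed by the added 1. With a pseudocount of 0.1 the log2 difference between the populations at E11.5 was 2.43 for *Nxph3* (1.22 with 1) and 6.12 for *Nxph4* (5.48), that between E15.5 and E11.5 in EGFP- cells was 4.03 for *Nxph3* (2.51), and the log2 ratio of *Nxph3* to *Nxph4* was -5.70 in EGFP+ cells at E11.5 (-5.20) and -2.01, -3.39 and -2.03 in EGFP- cells at the 3 stages (-0.94, -2.90 and -1.87). Median-of-ratios scaling put the *Nxph4* difference at E13.5 at 1.69 (1.39). These moves follow from the added constant and the scaling themselves. Without 1 library at a time, the *Nxph3* population difference ranged from 1.15 to 1.28, from 2.45 to 3.30 and from 2.73 to 3.94 at the 3 stages and that of *Nxph4* from 5.41 to 5.54, from 1.19 to 1.59 and from -0.02 to 1.19. The E15.5 minus E11.5 difference ranged from 4.27 to 4.97 and from 1.90 to 3.11 for *Nxph3* in EGFP+ and EGFP- cells, and from -2.03 to -0.87 and from 2.84 to 4.05 for *Nxph4*. The counts of genes called ranged from 3654 to 4007, from 2965 to 3722 and from 2110 to 2883 between the populations, from 3211 to 3724 and from 3863 to 4177 between stages in EGFP+ and EGFP- cells, and from 2459 to 2979 for the change of the difference. With the replicate block 4216, 4023 and 3414 genes were called between the populations, and of the family calls only the rise of *Nrxn3* in EGFP- cells (0.39, limma adjusted p = 0.0383) was lost under it (adjusted p = 0.0596), as under the pseudocount of 0.1 (adjusted p = 0.120). The *Nrxn2* change of the difference was lost in 8 of the fits without 1 library (limma adjusted p from 0.0517 to 0.167). *Nxph2* has a mean under 1 FPKM and no value under that filter. The lowest *Nxph4* difference at E15.5, -0.02, came without EGFP- replicate 2, against 0.59 with all libraries.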
